A study of Mus musculus with 3 samples.

Results

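The keratin gene family was described in single-cell RNA from the mouse calvaria, the roof of the skull, with and without an implanted squamous cell carcinoma. Members were all genes whose symbol is Krt followed by a number and at most 1 letter and which had at least 30 unique molecular identifiers (UMIs, single counted RNA molecules) over the 3 libraries together. Of 31053 genes in the count tables, 53 carried such a symbol. The members were 22 of these, and the other 31 stayed under the minimum, 4 of them at 0 UMIs. The members closest above the minimum were Krt88 with 31 and Krt20 with 46 UMIs, and those closest below it were Krt36 with 26 and Krt87 with 22 UMIs.

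Keratins form the intermediate filaments of epithelial cells. A filament is built from pairs of a type I and a type II chain, so an epithelial cell makes both kinds, and which pair it makes depends on the epithelium. Krt8 and Krt18 pair in simple, single-layered epithelia, Krt5 and Krt14 in the basal layer of stratified epithelia, Krt1 and Krt10 in the differentiating epidermis, and Krt6 chains with Krt16 and Krt17 in wounded or stressed epithelium, while Krt81, Krt83 and Krt86 belong to the hard keratins of the hair and nail shaft. Bone and bone marrow hold no epithelium, and keratin RNA is commonly used to find carcinoma cells there. The members were 12 type I and 10 type II genes. All type I members lie on chromosome 11 except Krt18, which lies with the type II members on chromosome 15 (GRCm38, GENCODE annotation).

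All mice were C57BL/6 and 8 weeks old, and each of the 3 groups had 1 library. Control calvariae carried no tumour. In the scratch-negative library, which the labels call the pre-invasive stage, the bone was left intact and HNM007, a squamous cell carcinoma line of the mouse, was placed on it. In the scratch-positive library, called the invasive stage, the periosteum had first been removed by scratching the bone with a needle. Tissue of both was taken 1 week later and the tumour itself was excised. Every library was a 1 to 1 mix of live cells with CD45 (immune cells) and without it, so the balance of immune and other cells was set by the mixing. How many animals went into a library is not given in the sources used here, there was no tumour-free scratched group, and the tumour is 1 cell line. With 1 library per group there is no test between groups: intervals below are 95% intervals that cover counting error only, and each difference is between libraries, so that scratch, stage and animal cannot be told apart.

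After filtering, 22195 of 25511 barcodes remained, with a median of 8864 UMIs per cell in control, 11261.5 in scratch-negative and 36437.5 in scratch-positive. Between 40 and 54 barcodes of each library occurred in another library as well. Cells were clustered without the keratin genes and named from other markers. Clusters 25, 27, 28 and 29 were named as epithelial and are called tumour cells here. They held 208 scratch-negative and 3782 scratch-positive cells, and 1 control barcode that was not used. In each of these clusters 6 to 9 of 28 epithelial markers were detected above the other clusters. The markers Perp, Pkp1, Jup and Itgb4, which belong to cell junctions, were among them in each of the 4 clusters. The defining markers Epcam and Cdh1 were low: Epcam stood at 1.51 UMIs per 1000000 UMIs (CPM) in scratch-negative and 3.06 CPM in scratch-positive tumour cells, and Cdh1 at 4.46 and 3.66 CPM. The 28 markers summed to 315.5 and 343.9 CPM in these cells. Of the classes with at least 50 cells, B lineage cells of scratch-negative (442.0 CPM) and dendritic cells of scratch-positive (476.5 CPM) stood above them, and the other classes of these 2 libraries below. Vim, the filament gene of mesenchymal cells, stood at 8294 and 9267 CPM. None of the 28 markers was among the 10 leading genes of any of the 4 clusters, and in cluster 27 these included Cxcl5 and Csf3, which encode signals to neutrophils. Wfdc2, a secreted protein gene that led all 4 clusters among others, stood at 3621 and 3675 CPM and serves below as the tumour gene that is not a keratin.

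**Figure D1:**
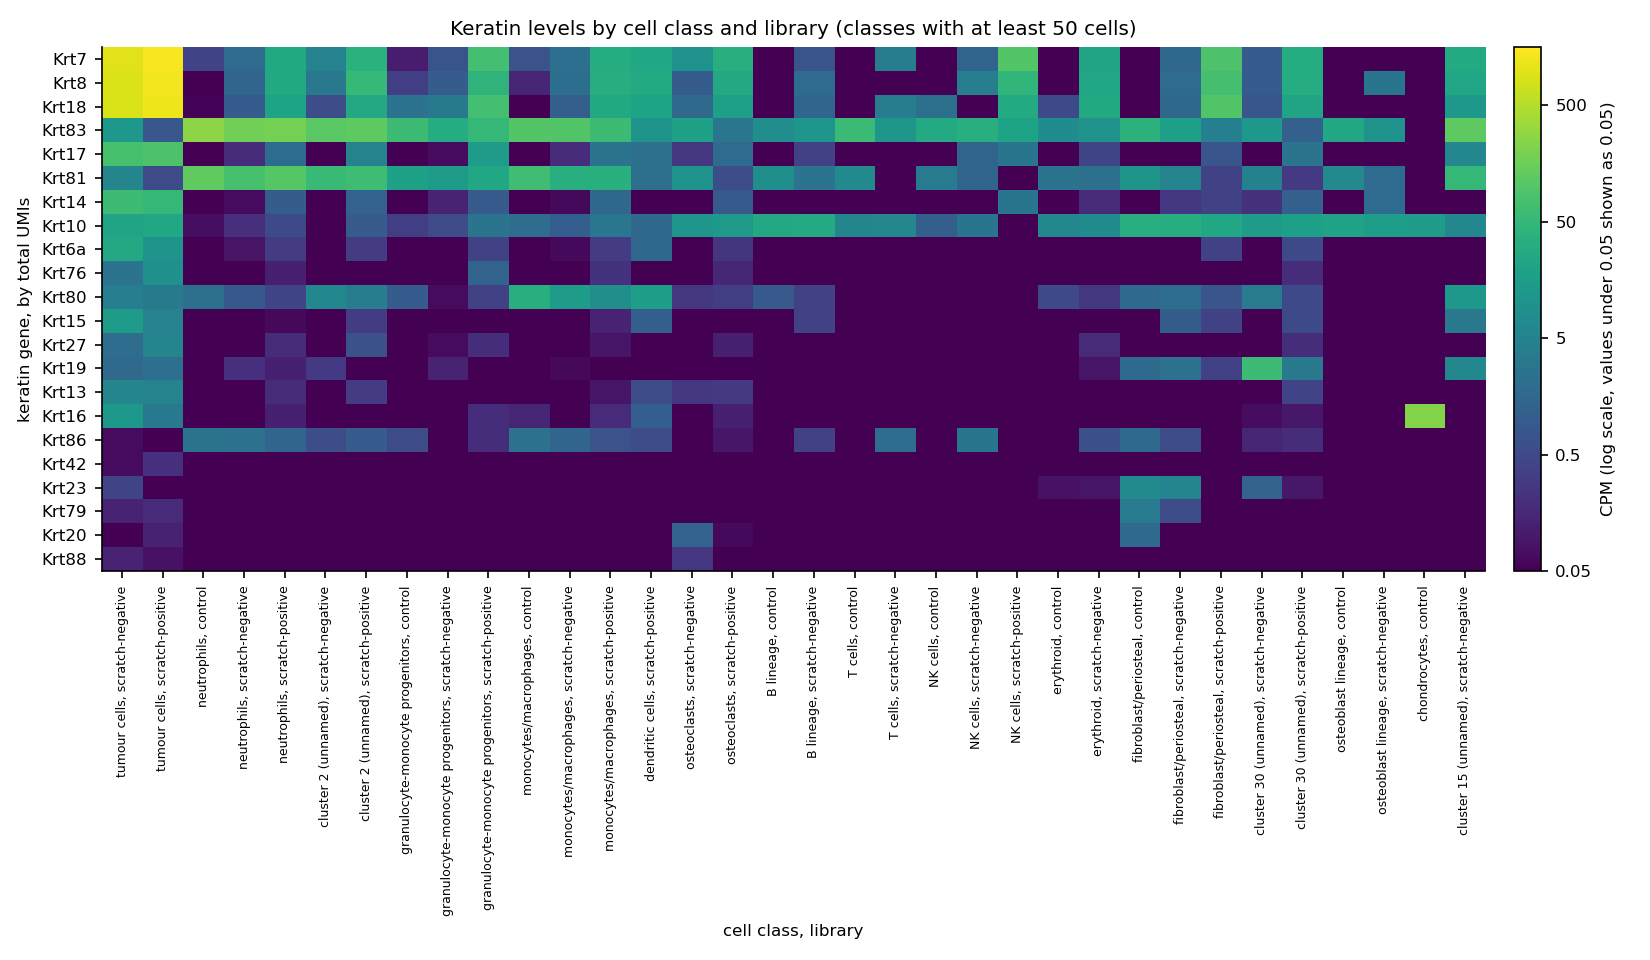
Level of each keratin member (rows, by total UMIs) in each cell class and library with at least 50 cells (columns), as CPM on a log colour scale, with values under 0.05 drawn as 0.05. Krt7, Krt8 and Krt18 are highest in the columns of tumour cells (884 to 1406 CPM), Krt83 and Krt81 in neutrophils, Krt19 in cluster 30 of scratch-negative, and Krt16 in the control chondrocytes, a class of few and shallow cells.

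The keratins of simple epithelia made up most of the keratin RNA of the tumour cells. Krt7, Krt8 and Krt18 gave 91.71% of all keratin UMIs in scratch-negative and 95.02% in scratch-positive tumour cells. Krt7, the type II chain of ductal and glandular epithelia, stood at 979 CPM in scratch-negative and 1406 CPM in scratch-positive. Krt8, its close relative, stood at 905 and 1343 CPM, and its type I partner Krt18 at 884 and 1236 CPM. All 3 were higher in scratch-positive, with ratios of 1.44 (1.41 to 1.46), 1.48 (1.46 to 1.51) and 1.40 (1.37 to 1.42). These stay under the 1.5-fold used here as a minimum. A gene is counted as higher or lower below where the 2 libraries differ by at least 1.5-fold, the whole counting interval lies on that side of 1 and the libraries have at least 10 UMIs together. Krt18 had 1034 of its 12894 scratch-negative UMIs in 1 cell. With the highest cell of each gene left out in each library, the ratios of Krt8 and Krt18 were 1.51 and 1.52, just past the minimum. Keratins together were 0.3018% of the UMIs of scratch-negative and 0.4194% of those of scratch-positive tumour cells. The type II members summed to 1.789 and 1.952 times the level of the type I members. Counts come from the 3′ ends of transcripts and are not divided by length.

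The RefSeq promoters of these 3 genes are shown because the genes were high together and differed together between the libraries. RefSeq (GRCm38.p6) had an entry for 12 of the 22 members. Each sequence runs from 250 bases before to 10 bases after the RefSeq start, 5′ to 3′ on the strand of the gene. That start lies inside the GENCODE gene in all 3. Capitals mark matches, on either strand, to TATAAA (the TATA box), GGGCGG (a GC box of Sp1), TGANTCA (AP-1), GCCNNNGGC (AP-2) or CCACACCC (a KLF site), searched up to 50 bases after the start.
Krt7, chr15:101412153-101412412, plus strand: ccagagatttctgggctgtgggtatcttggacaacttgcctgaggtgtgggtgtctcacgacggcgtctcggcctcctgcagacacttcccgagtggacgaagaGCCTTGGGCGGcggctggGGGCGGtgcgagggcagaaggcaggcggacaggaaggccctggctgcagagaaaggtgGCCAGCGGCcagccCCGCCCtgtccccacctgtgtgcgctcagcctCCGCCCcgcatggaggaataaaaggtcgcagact
Krt8, chr15:102004333-102004592, minus strand: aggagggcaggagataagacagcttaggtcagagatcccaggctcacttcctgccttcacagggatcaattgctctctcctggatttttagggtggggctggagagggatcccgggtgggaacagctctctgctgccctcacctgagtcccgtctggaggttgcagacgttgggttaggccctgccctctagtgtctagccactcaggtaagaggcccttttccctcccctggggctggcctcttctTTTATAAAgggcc
Krt18, chr15:102027966-102028225, plus strand: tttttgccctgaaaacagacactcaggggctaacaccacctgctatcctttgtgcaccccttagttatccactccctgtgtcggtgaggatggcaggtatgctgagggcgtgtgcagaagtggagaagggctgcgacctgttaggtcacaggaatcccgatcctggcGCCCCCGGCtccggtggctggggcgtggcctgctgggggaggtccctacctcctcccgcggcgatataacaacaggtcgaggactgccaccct
The windows shared no motif between all 3 genes. Krt7 held 4 matches to GGGCGG and 2 to GCCNNNGGC, of which the first of each overlap, and 66.3% of its bases were G or C. Krt18 held 1 match to GCCNNNGGC, 83 bases before the start. Krt8 held the TATA box on both strands in an overlapping run across the annotated start. Of 32851 promoter windows of the same length, 35.7% held GGGCGG, 16.6% held GCCNNNGGC and 13.6% held TATAAA, and 7.81% and 3.56% held TGANTCA and CCACACCC, which none of these 3 held. A match describes letters and is not a bound site.

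Across single tumour cells the 3 simple keratins varied together. In scratch-positive, the median cell held 12.5 UMIs of Krt7 per 10000 UMIs, 12.2 of Krt8 and 11.3 of Krt18, and the median scratch-negative cell held 7.83, 7.60 and 6.53. Pearson's r of log-scaled levels over the 3782 scratch-positive cells was 0.604 between Krt8 and Krt18 (Spearman's rho 0.622), 0.512 between Krt7 and Krt18, and 0.501 between Krt7 and Krt8. Over the 208 scratch-negative cells it was 0.665 for Krt8 and Krt18 (rho 0.704). The cells of a library share its preparation, and depth varies between them, so these are descriptions with no test. With every cell thinned to 5000 UMIs, which left out 11 scratch-negative and 120 scratch-positive cells, Krt8 had a UMI in 87.8% (82.4 to 92.0) of scratch-negative and 97.5% (97.0 to 98.0) of scratch-positive tumour cells. In neutrophils, which should make none, the same thinning kept 3495, 3662 and 1241 cells and gave 0% (exact upper bound 0.1055%) in control, 0.901% in scratch-negative and 12.7% in scratch-positive.

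Next in level came keratins of stratified and wounded epithelium. Krt17, a wound keratin that is also common in squamous carcinoma, stood at 77.9 CPM in scratch-negative and 88.4 CPM in scratch-positive. Krt14, the type I chain of basal keratinocytes, stood at 61.8 and 50.5 CPM. Its usual partner Krt5 had 4 UMIs in all 3 libraries together and Krt6b, another type II chain of wounds, had 1, so neither is a member. Among the counted type II chains of stratified epithelium, Krt6a was the highest in scratch-negative, at 26.4 CPM. Krt14 had a UMI in 57.2% of scratch-negative and 55.1% of scratch-positive cells before thinning, and in 20.8% (15.4 to 27.2) and 16.2% (15.04 to 17.46) after thinning to 5000 UMIs, where neutrophils had 0, 0.0819 and 0.484% in control, scratch-negative and scratch-positive. Thinned shares of Krt17 were 19.8 and 27.3%, beside at most 0.725% in neutrophils. Shared sequence limits these genes: 9.53% of the 50-base words in the last 500 bases of Krt14 and of Krt17, and 16.9% of those of Krt16, also occur in transcripts of another gene.

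The counted differences between the libraries were in the less abundant keratins. Of 20 members with at least 10 UMIs, 2 were higher in scratch-positive tumour cells and 5 were lower. Over all 14949 genes counted, 3.44% were higher and 12.9% lower, which is the background to these counts, and a share near it is no result about the members. The median log2 ratio was 0.18 over the members and 0.02 over all genes. Krt76, a type II keratin of the hard palate and other oral mucosa, was 3.48-fold higher (2.53 to 4.93), at 2.60 against 9.07 CPM. Krt27, a type I keratin of the hair follicle's inner root sheath, was 2.74-fold higher (1.91 to 4.08), at 2.06 against 5.64 CPM, with 30 scratch-negative UMIs behind it. The wound keratin Krt6a was 2.52-fold lower (2.26 to 2.81), at 26.4 against 10.5 CPM. Its partner Krt16 was 3.67-fold lower (3.104 to 4.312), at 12.3 against 3.37 CPM. Krt15, a basal type I chain, was 3.03-fold lower (2.61 to 3.49), at 15.1 against 5.01 CPM. So the wound pair stood lower together in the scratch-positive tumour cells, while Krt17, the other wound member, did not.

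The other lower members were the hair keratins Krt83, 15.2-fold lower (12.4 to 18.7) at 12.5 against 0.820 CPM, and Krt81, 10.4-fold lower (7.76 to 13.8) at 5.48 against 0.528 CPM. Both were highest in neutrophils, and neutrophil RNA differed in the same direction between the tumour cells of the 2 libraries; its part in these differences was not tested. All 20 neutrophil markers had UMIs in the tumour cells of both libraries, and together they summed to 30480 CPM in scratch-negative and 1159 CPM in scratch-positive. The neutrophil gene S100a8 stood at 10882 and 357 CPM in the tumour cells, which is 5.45 and 0.23% of its level in the neutrophils of the same library, and Krt83 stood at 7.21 and 0.45% of its own neutrophil level.

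Members that did not pass in either direction included Krt10, the type I chain of differentiating epidermis, at 21.3 and 24.0 CPM, and Krt13, a type I chain of internal stratified mucosa, at 5.69 and 5.08 CPM. Krt80, a type II chain of differentiating epithelia, stood at 4.46 and 3.36 CPM, and Krt19, a type I chain of ducts, at 1.78 and 2.16 CPM. Krt42, Krt79, Krt88 and Krt20 stayed at or under 0.204 CPM in both libraries. Krt20, a type I chain of intestinal epithelium, had 0 UMIs in scratch-negative, which allows up to 0.206 CPM, and 32 UMIs in scratch-positive. Krt86 and Krt23 had 9 UMIs each in the tumour cells of both libraries and were not counted.

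**Figure D2:**
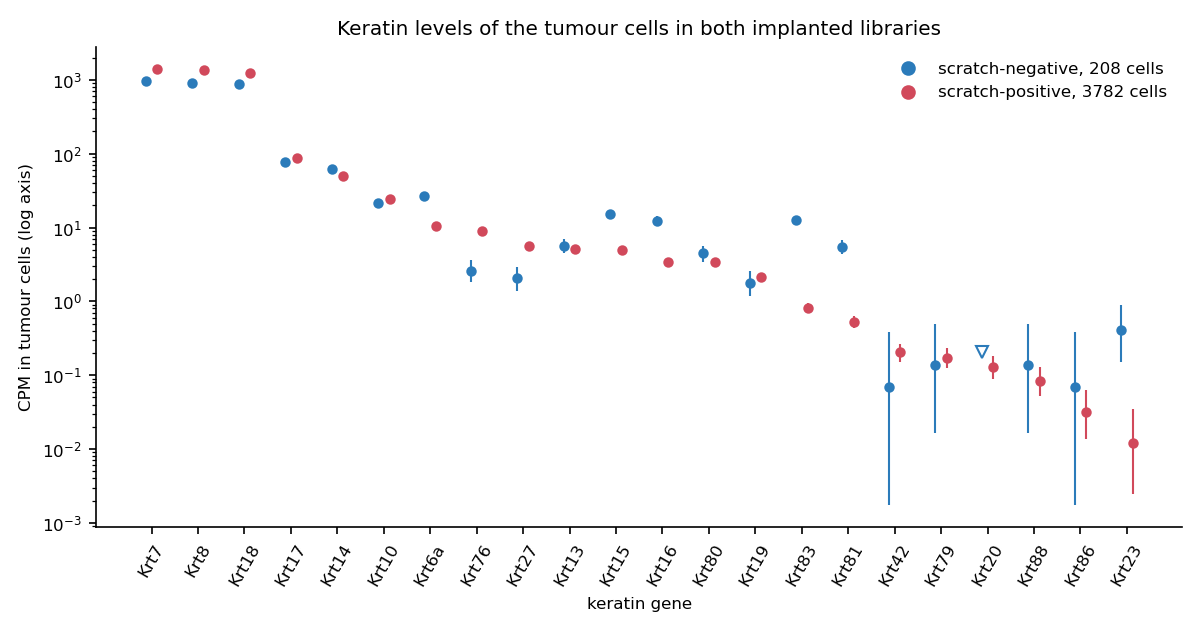
Level of each keratin member in the tumour cells of scratch-negative (blue, 208 cells) and scratch-positive (red, 3782 cells), as CPM on a log axis. Points are sums over cells, bars are exact Poisson 95% intervals, which cover counting error only, and the open triangle marks the limit of 0.206 CPM for Krt20 at 0 UMIs. Krt7, Krt8 and Krt18 lie near 1000 CPM in both, and the points of Krt6a, Krt15, Krt16, Krt83 and Krt81 lie lower in scratch-positive.

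Single cells and the mix of clusters bore on these counts. Of the 221 scratch-negative UMIs of Krt15, 143 came from 1 cell. Without each library's highest cell, Krt15 stood at 5.35 against 4.90 CPM and was no longer lower, Krt6a stood at 19.7 against 10.1 CPM, and 4 members were higher and 4 lower, beside 5.38 and 9.97% of 14664 genes. Most scratch-negative tumour cells, 158 of 208, were in cluster 27, whereas scratch-positive tumour cells were 2065 in cluster 28, 834 in cluster 29, 622 in cluster 25 and 261 in cluster 27. Within cluster 27 alone 1 of 16 members was higher, beside 3.18% of 12434 genes, and 5 were lower, beside 10.2%. Krt76 was 5.72-fold higher there (2.17 against 12.4 CPM), and the same 5 members were lower. The call of Krt15 rests on the same cell there: without each library's highest cell it stood at 5.46 against 5.43 CPM in cluster 27 and was not lower, while the other 4 were. Krt27 did not keep its direction there, with 1.99 against 1.97 CPM. Krt7 stood at 910 against 1039 CPM in cluster 27, Krt8 at 863 against 1129 CPM and Krt18 at 751 against 993 CPM.

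Keratin levels also differed between the 4 tumour clusters of scratch-positive. Krt7 ran from 1039 CPM in cluster 27 to 1524 CPM in cluster 28, which was led by Pthlh, the gene of a bone-resorbing hormone, and by the growth factor gene Areg. Krt17 was also highest in cluster 28, at 107 CPM, and lowest in cluster 25, at 50.7 CPM. Krt6a was highest in cluster 29, at 16.7 CPM, against 7.08 to 8.46 CPM in the others, and Krt15 ran from 1.75 CPM in cluster 25 to 6.85 CPM in cluster 27. Krt7 spanned a narrower range than Krt6a and Krt15. Several of the less abundant keratins were also held by fewer cells, but Krt10 was not. Krt10 had a UMI in 2693 scratch-positive tumour cells and the more abundant Krt14 in 2084. The 38 scratch-positive tumour cells with the most UMIs of a gene, 1% of all, held 4.61% of the Krt7 UMIs and 5.39% of Krt10, but 15.3% of Krt14, 30.6% of Krt15, 36.5% of Krt76, 42.9% of Krt6a and 53.6% of Krt16. This share is high by construction where UMIs are few, as for Krt42, at 100% of 51 UMIs. Over all 3782 scratch-positive tumour cells, r was 0.324 between Krt15 and Krt13 and 0.203 between Krt14 and Krt6a, which are weak. Over the 208 scratch-negative cells it was 0.381 between Krt14 and Krt6a and 0.219 between Krt6a and Krt16.

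Genes that work with keratins were counted by the same rule in all tumour cells, from lists of 4 kinds, beside the same 3.44% higher and 12.9% lower of all genes. Of 18 genes of desmosomes and hemidesmosomes, the junctions that anchor keratin filaments, 15 could be counted and none was higher or lower, with a median log2 ratio of 0.05. Within cluster 27, Itgb4 of the hemidesmosome was lower, at 16.5 against 10.9 CPM. Of 18 regulators of keratin genes, 15 could be counted, of which 1 was higher and 3 were lower. Twist1, a factor of mesenchymal cells, was 1.53-fold higher, at 138 against 211 CPM. The epithelial factors Klf4 (126 against 54.1 CPM), Elf3 (13.9 against 6.91 CPM) and Grhl1 (1.92 against 1.00 CPM) were lower. The rest of the counted regulators passed in neither direction. Among these, the ratios were 0.985 for Zeb1, 0.705 for Zeb2, 0.871 for Snai1 and 1.13 for Snai2. For Klf5, Trp63, Tfap2a and Ehf they were 1.02, 1.09, 1.05 and 1.44. Within cluster 27, Twist1 kept its call and so did Klf4 and Elf3, but Grhl1 did not pass, and Ehf, another epithelial factor, was 2.67-fold higher on 9 and 38 UMIs. Of 15 genes of the cornified envelope, the protein shell of dead keratinocytes, 10 could be counted, of which 3 were higher and 1 lower. Lor, the gene of its main protein loricrin, had 2 UMIs in scratch-negative and 232 in scratch-positive, and Sprr1b and Sprr1a, small cross-linked envelope proteins, were 3.87-fold and 1.65-fold higher, while the cross-linking enzyme gene Tgm1 was 4.11-fold lower on 6 and 25 UMIs. None of these 4 passed within cluster 27: Sprr1a stood at a ratio of 1.19 and Sprr1b at 1.74, and Lor and Tgm1 had too few UMIs to be counted. Of 12 other intermediate filament genes, 8 could be counted, none was higher and 2 were lower, Nes (23.4 against 14.0 CPM) and Des (6 and 11 UMIs).

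Outside the tumour cells, Krt7, Krt8 and Krt18 were lower by far than in them and differed both between the libraries and between cell classes. A level is given here as a percent of the level in tumour cells of the same library. Over 13 other classes of scratch-negative, the median was 0.190% for Krt7, 0.207% for Krt8, 0.167% for Krt18 and 0.133% for Wfdc2. Over 9 other classes of scratch-positive, it was 2.41% for Krt7, 2.42% for Krt8, 2.13% for Krt18 and 2.81% for Wfdc2. The medians of the 3 keratins and of the non-keratin tumour gene were thus close to each other within a library and more than 10 times as high in scratch-positive. Single classes ranged widely, for Krt7 from 0 to 2.91% in scratch-negative and from 1.68 to 7.13% in scratch-positive, so the ranges of the libraries overlap. The part of free tumour RNA in these levels was not tested. In neutrophils of scratch-negative, Krt7, Krt8, Krt18 and Wfdc2 stood at 0.190, 0.160, 0.115 and 0.121% of the tumour level, and in those of scratch-positive at 1.90, 2.02, 1.64 and 1.88%. Krt17 and Krt14 stood at 2.24 and 2.08% in the latter, from 32 and 17 UMIs.

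**Figure D3:**
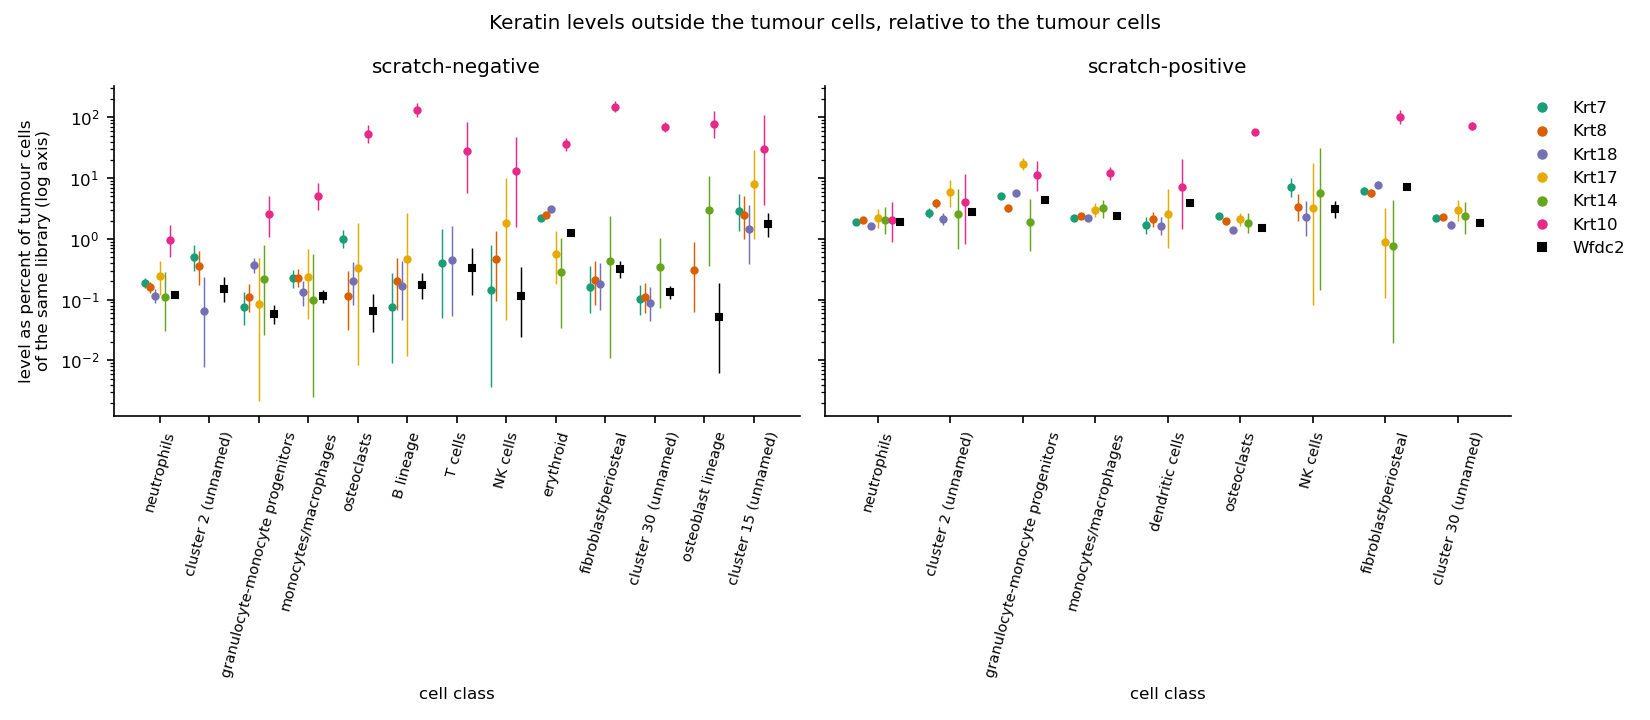
Level of Krt7, Krt8, Krt18, Krt17, Krt14, Krt10 and Wfdc2 in each other cell class as a percent of the level in tumour cells of the same library, on a log axis, with 95% counting intervals; scratch-negative on the left, scratch-positive on the right, values of 0 not drawn. The simple keratins and Wfdc2 lie between 0.0511 and 3.09% in scratch-negative and between 1.38 and 7.77% in scratch-positive, while Krt10 lies far above them in several classes and at 150% in fibroblast/periosteal cells of scratch-negative.

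Some of the high percentages rested on 1 cell and others did not. The highest for Krt7 in scratch-positive, 7.13% (4.97 to 9.91), was in 92 NK cells, from 35 UMIs, and stood at 7.01% without the highest cell. Krt8, Krt18 and Wfdc2 stood at 3.41, 2.32 and 3.12% in these cells. In scratch-negative erythroid cells Krt8 had 255 UMIs, 247 of them in 1 cell, and stood at 22.5 CPM with it and 0.713 CPM without it. In scratch-positive granulocyte-monocyte progenitors, 68 of 77 Krt17 UMIs came from 1 cell, and the level without it was 1.79 instead of 14.97 CPM. Fibroblast/periosteal cells of scratch-positive stood at 6.25% for Krt7, 5.67% for Krt8, 7.77% for Krt18 and 7.24% for Wfdc2, and without the highest cell of each gene at 3.12, 3.39, 4.75 and 3.97%. Scratch-negative osteoclasts, the cells that resorb bone, had 38 Krt7 UMIs in 26 of 83 cells, 1.01% (0.712 to 1.38) of the tumour level, where Krt8 stood at 0.115%, Krt18 at 0.205% and Wfdc2 at 0.0645%. The 3 lowest of these overlap in their intervals and Krt7 does not overlap them. In scratch-positive osteoclasts Krt7 stood at 2.41%, Krt8 at 1.94%, Krt18 at 1.38% and Wfdc2 at 1.496%. In control, where no tumour had been implanted, Krt18 had 23 UMIs in granulocyte-monocyte progenitors (2.58 CPM) and Krt7 had 22 UMIs in 22 neutrophils (0.404 CPM), while Krt8 had 4 UMIs in the whole library.

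In fibroblast/periosteal cells, 3 of 9 counted members, Krt7, Krt8 and Krt18, were higher in scratch-positive than in scratch-negative, beside 6.82% of 12285 genes, and 3 were lower, beside 14.2%. Wfdc2 was 11.5 against 266 CPM in these cells, so the tumour gene moved with the keratins, and its part in their difference was not tested. The lower members were Krt83 (17.6 against 4.31 CPM), Krt81 (5.08 against 0.392 CPM) and Krt23, and S100a8, the neutrophil gene, stood at 19803 against 4303 CPM, beside which the same holds. Krt23, a type I chain of simple epithelia, had 20 UMIs in scratch-negative, 14 of them in 1 cell, and 0 in scratch-positive, and 4 UMIs (7.004 CPM) in control. With 0 UMIs in scratch-positive, Krt23 could not be called higher. Krt10 in the same cells is given below.

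Krt83 and Krt81 were highest in neutrophils of every library including the control library, which holds no tumour. These genes lie side by side on chromosome 15 in GRCm38, Krt81 at chr15:101459061-101463751 and Krt83 at chr15:101485130-101491512, both on the minus strand, with Krt86 between them at chr15:101473478-101479986 on the plus strand. In the neutrophils, 4526 cells of control, 4492 of scratch-negative and 1569 of scratch-positive, Krt83 stood at 260.1 CPM (255.9 to 264.4), 173 CPM (170 to 177) and 183 CPM (177 to 190). Krt81 stood at 128, 76.1 and 104 CPM, and Krt86 at 2.72, 2.53 and 1.48 CPM. Thinned to 5000 UMIs, 57.8% of control, 46.8% of scratch-negative and 45.6% of scratch-positive neutrophils held a Krt83 UMI. In tumour cells thinned the same way 6.09% of scratch-negative and 0.382% of scratch-positive held one. The median neutrophil held 8648, 9980.5 and 8306 UMIs and the median tumour cell 70815 and 63184.5. Cluster 2, closest to neutrophils by its markers but left unnamed, is not in this class. It held 14 control, 429 scratch-negative and 480 scratch-positive cells.

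Against control, 3 of 10 counted members were lower in scratch-negative neutrophils, beside 7.07% of 12397 genes, and 5 were higher, beside 4.94%. The lower members were Krt83, 1.503-fold (1.465 to 1.542), Krt81, 1.68-fold (1.62 to 1.75), and Krt80, 2.66-fold (1.90 to 3.78). The fold of Krt83 lies at the minimum: scaled by edgeR's TMM its ratio was 0.728 and with equal weight for each neutrophil cluster 0.695, neither of which passes. With that equal weight 1 member was lower instead of 3, so Krt81 and Krt80 did not both keep their call. In this pair the TMM and DESeq2 scalings moved the log2 ratio by 0.13 and 0.11, and the share of called genes that are higher went from 41.1% to 62.0 and 58.3%. The 5 higher members were Krt7, Krt8, Krt18, Krt17 and Krt19, at most 1.86 CPM each, in a library that holds tumour cells. Krt8, Krt17 and Krt19 had 0 UMIs in control neutrophils, so scratch-negative alone brought them to the minimum of 10 UMIs. Once counted, they could not be called lower. Krt8 had 0 UMIs in 4526 control neutrophils, which allows up to 0.0551 CPM, and was at least 26.3-fold higher in scratch-negative, at 1.45 CPM.

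In scratch-positive neutrophils 6 of 10 counted members were higher than in control, beside 13.9% of 11944 genes, and 2 were lower, beside 13.1%. The higher members were Krt7 (26.7 CPM), Krt8 (27.1 CPM), Krt18 (20.3 CPM), Krt17 (1.98 CPM), Krt14 (1.05 CPM) and Krt10 (0.494 CPM). Of these, Krt8, Krt17 and Krt14 had 0 UMIs in control neutrophils and, once counted, could not be called lower. The lower members were Krt80, 5.31-fold, and Krt86, 1.83-fold (1.18 to 2.95). Krt80 was highest in clusters 0 and 3 of these cells, at 12.5 and 6.61 CPM over all libraries. These clusters held 671 and 577 of 4526 control neutrophils and 143 and 107 of 1569 scratch-positive neutrophils. In the unnamed cluster 2, left out here, it stood at 5.19 CPM over all libraries. With cluster 2 added, 6 members were higher and 3 lower, and 63.5% instead of 51.6% of called genes were higher. With equal weight for each neutrophil cluster, 1 member was lower. Both implanted libraries are set against the same control here. Between scratch-positive and scratch-negative, 5 of 12 members were higher, beside 9.81% of 12035 genes, and 1 was lower, beside 3.54%. The higher members were Krt7, Krt8, Krt18, Krt17 and Krt14, those of the tumour cells. The lower member was Krt86, 1.71-fold (1.10 to 2.75), which without each gene's highest cell was joined by Krt80 (beside 8.84% of 11743 genes higher and 4.5% lower). With equal weight for each neutrophil cluster 0 members were lower. Pooled over libraries, Krt86 was highest in clusters 0, 4 and 3, at 5.945, 5.92 and 5.76 CPM. These held 143, 206 and 107 of 1569 scratch-positive neutrophils and 592, 634 and 467 of 4492 scratch-negative neutrophils. The part of this mix was not tested further. Krt83 differed by a ratio of 1.06, or 0.961 when scaled by TMM. Here both scalings moved the log2 ratio by -0.14 and -0.13, and the higher share of called genes from 73.5% to 55.4 and 56.1%.

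Krt83 differed between the clusters of neutrophils. The neutrophil clusters were ordered by Camp, a granule protein gene of immature neutrophils, from cluster 12, the highest, to cluster 3, the lowest. In control, Krt83 stood at 140 CPM in cluster 12, 174 CPM in cluster 6, 304 CPM in cluster 8 and 428 CPM in cluster 5. Cluster 5 was led by granule genes such as Mmp8 and Ltf. Past it, Krt83 stood at 422 CPM in cluster 4, 165 CPM in cluster 0 and 267 CPM in cluster 3. In scratch-negative the same clusters stood at 97.1, 113, 193, 293, 304, 116 and 164 CPM, and in scratch-positive at 106, 139, 194, 268, 372, 166 and 171 CPM. Clusters 5 and 4 were the highest in each library, and control was the highest library in each of these clusters except cluster 0, where control and scratch-positive stood at 165 and 166 CPM.

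Krt81 was highest in clusters with more Camp than those of Krt83, and Krt86 in clusters with less. Krt81 stood in control at 204 CPM in cluster 8 and 195 CPM in cluster 5, and at 23.2 CPM in each of clusters 0 and 3. In scratch-positive it had 0 UMIs in cluster 0. Krt86 ran from 0.656 CPM in cluster 12 to 6.98 CPM in cluster 0 of control. The 3 hair keratins are thus not in 1 fixed ratio along the clusters. Over 61 sums of a cluster in a library with at least 50 cells, on the scale of log2(CPM + 1), the genes with the pattern most like Krt83 were Ly6g (Pearson's r 0.974), Fmo5 (0.969), Acpp (0.964), 9830107B12Rik (0.961) and Cd177 (0.956). Ly6g and Cd177 encode surface proteins of neutrophils. Krt81 reached 0.856, Krt86 0.724 and S100a8 0.947, and Krt10 was the member farthest from Krt83, at -0.817. Sums of 1 library share its preparation.

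**Figure D4:**
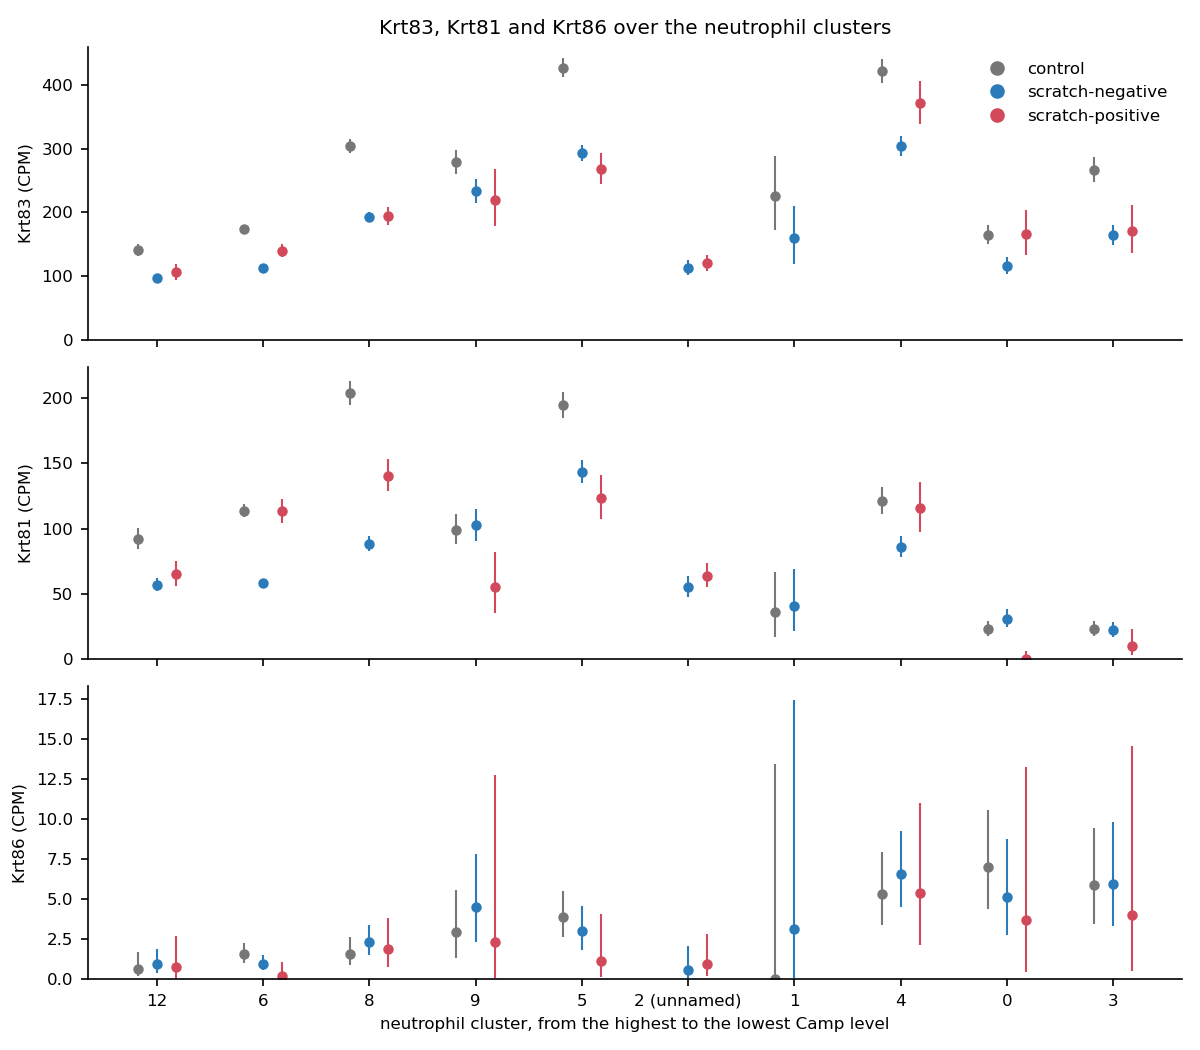
Level of Krt83, Krt81 and Krt86 (CPM) in the neutrophil clusters of control (grey), scratch-negative (blue) and scratch-positive (red), ordered from the highest to the lowest Camp level, with exact Poisson 95% intervals; clusters with at least 30 cells in a library are drawn. Krt83 is highest in clusters 5 and 4, up to 428 CPM, Krt81 in clusters 8 and 5 of control, at 204 and 195 CPM, and Krt86 reaches at most 6.98 CPM.

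Krt83 in other cells was set beside S100a8, a gene that is high in neutrophils. In monocytes and macrophages, Krt83 stood at 38.4, 55.6 and 32.8% of its neutrophil level in control, scratch-negative and scratch-positive, and S100a8 at 50.7, 56.3 and 29.3%. In granulocyte-monocyte progenitors Krt83 stood at 23.1, 17.6 and 27.4%, and S100a8 higher, at 53.4, 50.7 and 54.3%. The 20 neutrophil markers summed to 267300, 300100 and 148900 CPM in monocytes and macrophages, beside 522100, 541100 and 500500 CPM in neutrophils. In these classes S100a8 cannot tell neutrophil RNA from their own expression, and the part of either in Krt83 was not tested. In cluster 30 Krt83 stood at 7.31% in scratch-negative and 0.65% in scratch-positive, and S100a8 at 5.85 and 0.57%. Control T cells stood apart, at 22.3% for Krt83 and 8.36% for S100a8, but 14 of their 40 Krt83 UMIs came from 1 cell.

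Krt19 and Krt23 stood apart from the simple keratins Krt7, Krt8 and Krt18. Krt23 was highest in fibroblast/periosteal cells, at 7.004 CPM in control and 5.34 CPM in scratch-negative, from 4 and 20 UMIs. Krt19 was highest not in tumour cells but in cluster 30 of scratch-negative, an unnamed cluster led by Crabp1, Tagln, Gzme and Acta2 in which 12 of 13 fibroblast markers were detected. There Krt19 had 847 UMIs in 162 of 352 cells, 60.9 CPM (56.9 to 65.2). In the 306 scratch-positive cells of cluster 30 it had 33 UMIs, 3.26 CPM (2.24 to 4.58), which is 18.7-fold lower (13.2 to 27.3). Tumour cells of the same 2 libraries stood at 1.78 and 2.16 CPM, so the level in cluster 30 was 3419% of the tumour level in scratch-negative and 151% in scratch-positive. The UMIs were spread over many cells: 72 cells held at least 5, the highest held 35, and the top 10 cells held 22.9% of them. Cells with and without a Krt19 UMI had 0.833 and 1.14 CPM of Krt8, 5.50 and 4.31 CPM of Wfdc2, and 0 Epcam UMIs. Cells with one had 25930 CPM of the collagen gene Col1a1 and 900 CPM of the smooth muscle actin gene Acta2, and cells without one 19960 and 1454 CPM, at median depths of 35330 and 40262.5 UMIs.

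Cluster 30 differed widely between the libraries. Of 11 counted members 5 were higher in scratch-positive, beside 14.7% of 13394 genes, and 5 were lower, beside 15.5%. The higher members, Krt7 (1.01 against 30.6 CPM), Krt8 (1.01 against 30.5 CPM), Krt18, Krt17 and Krt14, are those of the tumour cells, and the lower members besides Krt19 were Krt83, Krt81, Krt80 and Krt23. Krt17 had 0 UMIs in scratch-negative cells of cluster 30 and, once counted, could not be called lower. Depth was similar there, with medians of 37562.5 and 32058 UMIs. No control cell was in cluster 30, and the fibroblast/periosteal cells of control had 1 Krt19 UMI, those of scratch-negative 9 and those of scratch-positive 1.

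Krt80 was highest in monocytes and macrophages in control and scratch-negative, and in dendritic cells in scratch-positive, among classes of at least 50 cells. In control it stood at 32.6 CPM (28.5 to 37.1) in monocytes and macrophages, in scratch-negative at 15.7 CPM (13.8 to 17.7) and in scratch-positive at 8.47 CPM (7.31 to 9.77), and these intervals do not overlap. The 131 dendritic cells of scratch-positive stood at 15.8 CPM (10.5 to 22.8), from 28 UMIs in 20 cells. The mix of the class moved with it. Cluster 16, led by the monocyte genes F13a1 and Ccr2, held 291 of the 382 control cells, 142 of the 674 scratch-negative cells and 55 of the 783 scratch-positive cells, and Krt80 stood at 52.6, 51.8 and 48.0 CPM within it. Cluster 19, led by the macrophage genes C1qa and Arg1, stood at 17.4, 12.2 and 7.53 CPM. The level within cluster 16 was thus similar in the 3 libraries, and the difference lay in cluster 19 and in the shares of the clusters. The gene with the pattern most like Krt80 was P2ry6, a nucleotide receptor gene, at r = 0.842 over the 61 sums.

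Krt10 was spread over many cell types, and in several of them it stood at similar levels in control and in an implanted library. In B lineage cells it stood at 26.5 CPM (21.3 to 32.7) in control and 28.5 CPM (22.5 to 35.6) in scratch-negative, nearly all of it in cluster 22, led by Vpreb1 and Igll1, genes of the pre-B cell receptor, at 30.1 and 31.1 CPM. In fibroblast/periosteal cells it stood at 33.3, 32.1 and 24.7 CPM in control, scratch-negative and scratch-positive, with overlapping intervals. Osteoblast lineage cells, which build bone, stood at 19.6 and 16.6 CPM in control and scratch-negative. Osteoclasts stood at 11.4 and 13.8 CPM in scratch-negative and scratch-positive. In neutrophils Krt10 was close to absent, at 0.0734, 0.207 and 0.494 CPM in control, scratch-negative and scratch-positive, and scratch-positive passed as higher than control. In several of these classes its level was as high as in the tumour cells themselves, at 150% of the tumour level in fibroblast/periosteal cells of scratch-negative and 103% in those of scratch-positive. Krt10 overlaps Gm11940, an annotated gene on the other strand, and Krt7, Krt8, Krt6a, Krt76 and Krt80 also overlap annotated genes on the other strand. Of the other members, Krt16 reached 233 CPM (133 to 379) in the control cells named chondrocytes, from 16 UMIs in 12 of 71 cells with a median of 949 UMIs.

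**Figure D5:**
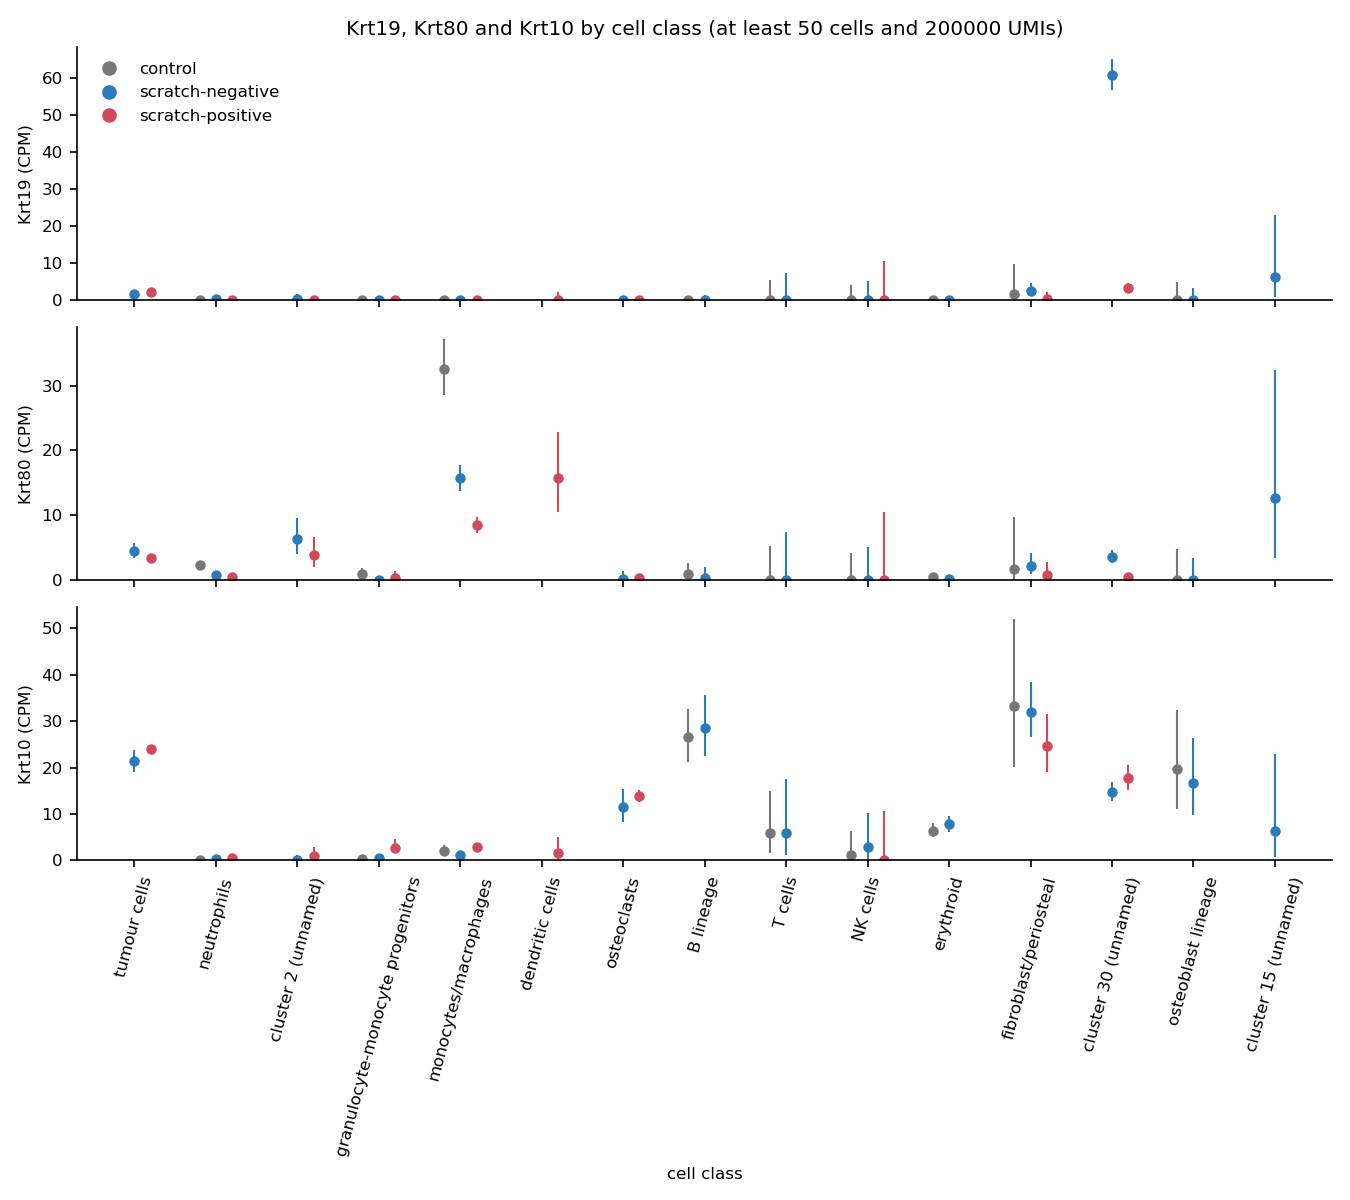
Level of Krt19, Krt80 and Krt10 (CPM) by cell class in control (grey), scratch-negative (blue) and scratch-positive (red), with exact Poisson 95% intervals, for classes with at least 50 cells and 200000 UMIs. Krt19 rises above 10 CPM in cluster 30 of scratch-negative alone (60.9 CPM), Krt80 is highest in monocytes and macrophages of control (32.6 CPM), and Krt10 lies between 10 and 35 CPM in B lineage, fibroblast/periosteal, osteoblast lineage and osteoclast cells.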

How the data were processed

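The deposited values were counts of UMIs per gene and cell barcode, raw and not normalized. They came from 10x 3′ v3.1 libraries read on a DNBSEQ-G400, per the labels' protocols, and per the file headers Cell Ranger 6.1.2 wrote them; the submitters' processing notes name mm10. The matrices held 7490, 8517 and 9504 barcodes and 100089008, 167623741 and 395654008 UMIs in control, scratch-negative and scratch-positive.

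Everything further was computed here. Barcodes with at least 500 genes and at most 10% mitochondrial UMIs were kept, and those with the highest Scrublet scores were removed at 0.8% per 1000 barcodes (449, 580 and 723). Scrublet's own threshold marked 4, 1 and 601, which for control and scratch-negative is not a working call. Cells of all libraries were clustered together in Python 3.11.15 with scanpy 1.11.5, beside scipy 1.17.1 and numpy 2.4.6, on 2000 variable genes without keratins, 30 principal components, 15 neighbours and Leiden resolution 1.0, which gave 31 clusters. A name needed at least 3 markers detected in at least 20% of cells and at 1.5 times the level elsewhere. Names were rebuilt here and may differ from the study's.

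UMIs were summed per class and library and divided by all UMIs of the sum. Levels carry exact Poisson, shares Clopper-Pearson and ratios conditional binomial intervals, and the floor for 0 UMIs is 3. The call rule was tested on simulated data with counting error only, which leaves out differences between cells and between libraries. TMM (edgeR 4.0.16) and DESeq2 1.42.0 size factors in R 4.3.3 served only as alternative scalings. Keratins were named with values where they were among the 15 highest in tumour cells or reached 5 CPM in a control class of at least 50 cells, and Krt83 always. Genes like Krt83 are the 5 with the highest correlation, and up to 4 partner genes per list were named by the size of their ratio; genes like Krt81 were not used. The members, lists and rules were chosen with earlier results of these data known. Alternatives changed filters, doublet removal, resolution, weighting, scaling, thinning and the fold minimum.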

Additional observations from a re-analysis of the deposited data

Results flagged for a closer look

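Krt16 stood out in barcodes that no comparison used. In the control library 887 barcodes had fewer than 500 detected genes. Of the 145 Krt16 UMIs of that library, 128 were in 82 of these barcodes, a level of 203.62 CPM, where 3 UMIs would be 4.772 CPM. The corresponding barcodes of scratch-negative and scratch-positive, 325 and 335, had 0. Kept cells named chondrocytes were 71 in control, 0 in scratch-negative and 1 in scratch-positive, so the libraries also differed in cartilage cells. The 71 control chondrocytes held 16 of the 17 Krt16 UMIs of kept control cells. The cartilage collagen gene Col2a1 had a UMI in 100% of the 82 barcodes and in 55.9% of the 805 without a Krt16 UMI, at median depths of 650 and 617 UMIs. Acan, another cartilage gene, had one in 87.8 and 41.49%. Krt14, Krt17 and Krt6a had 0 UMIs in the 82 barcodes. The overlap of 16.9% of the 50-base words of the Krt16 3′ end with other transcripts is a limit of this value, and its part was not tested.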

How the results depend on the processing

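No paired analysis was possible because each group has 1 library, which also left no replicate to leave out. Over 21 planned and 3 added alternatives, the latter chosen after seeing the data, 105 results were computed again; the cause of the changes that follow was not tested unless the construction shows it. In tumour cells the number of keratins higher, 2, became 1 within cluster 27 alone, where the Krt27 ratio turned to 0.990, and 4 with equal weight per cell or without each gene's highest cell; the number of partner genes higher, 4, became 2, 7 without the highest cell, and 2 at a fold of at least 2. Of neutrophil keratins lower, 3, 2 and 1 (scratch-negative and scratch-positive against control, and against each other), 1, 1 and 0 remained at a fold of 2 or with equal weight per cluster, and the last became 2 with Scrublet's own threshold, without doublet removal, with equal weight per cell or without the highest cell. In fibroblast/periosteal cells, 3 higher and 3 lower became 5 and 5 at minimums of 200 or 1000 genes, 5 higher at resolution 0.5 and 5 lower at resolution 2.0. Krt83 in control neutrophils, 260 CPM, became 302 at 200 genes, 267 at 1000 genes, 312 at 5 or 20% mitochondrial UMIs, 273 with equal weight per cell and 264.9 at resolution 2.0. Krt8 in neutrophils as a percent of the tumour level, 0.160 and 2.02, became 0.208 and 2.81 at 20%, 0.207 and 2.70 at 5% mitochondrial UMIs, 0.2495 and 2.77 with equal weight per cell, and 2.42 in scratch-positive at 200 genes. The Krt14 share, 20.8 and 16.2% of tumour cells, became 57.2 and 55.1% without thinning, where depth sets it, 13.4 and 8.22% at 2000 UMIs, 42.0 and 36.2% at 20000 UMIs, and 17.7% in scratch-positive with Scrublet's own threshold. Without the highest cell, the share of called genes that are higher in tumour cells went from 21.1 to 35.1%, with equal weight per cell to 32.9%, and with DESeq2 scaling in fibroblast/periosteal cells from 32.4 to 42.5%. At most 5% mitochondrial UMIs moved this share in neutrophils from 41.1 to 57.6% for scratch-negative against control. For scratch-positive it went from 51.6 to 69.4% against control and from 73.5 to 87.2% against scratch-negative.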
